A study of Mus musculus with 10 samples.

Results

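The genes described here encode 3 families of synaptic adhesion proteins. The 9 members were chosen by symbol and comprise the neurexin genes Nrxn2 and Nrxn3, the neuroligin genes Nlgn1, Nlgn2 and Nlgn3, and the genes Lrrtm1, Lrrtm2, Lrrtm3 and Lrrtm4 of leucine-rich repeat transmembrane proteins. They are 9 of 48709 genes in the count tables, and all 9 passed the filter on low counts that left 16884 genes. The RNA came from mouse hippocampal neurons in primary culture, to which lipid nanoparticles were added on day 10 in vitro, with lysis 48 h later. The nanoparticles carried anti-miR-409-5p (an antisense inhibitor of miR-409-5p, n = 4 libraries), anti-miR-501-3p (an inhibitor of miR-501-3p, n = 4) or scramble RNA (control, n = 2). All groups therefore received nanoparticles with RNA, and no untreated culture was analysed here. The labels name neither the mouse strain nor the scramble sequence, nor do they say whether replicate libraries stem from separate cultures, so the p-values refer to the spread between libraries, which may be technical.

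Neurexins sit in the presynaptic membrane and bind partners across the synaptic cleft. Neuroligins and LRRTMs are among those partners in the postsynaptic membrane, where they help to gather receptors opposite the site of transmitter release. NLGN1 is known mainly from excitatory synapses, NLGN2 from inhibitory synapses and NLGN3 from both, while the LRRTMs are known mainly from excitatory synapses of the hippocampus and cortex. A microRNA pairs through its seed, bases 2 to 8, with sites in 3' UTRs and lowers the targeted transcript or its translation, so an inhibitor of a microRNA addresses which transcripts it holds down.

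The mature sequences of the inhibited microRNAs (RefSeq, GRCm38.p6) are shown because their seeds define the sites searched in the adhesion genes, with the seed in capitals. The mature sequence of miR-409-5p lies at chr12:109743172-109743194 on the plus strand and that of miR-501-3p at chrX:7241270-7241291 on the minus strand.
mmu-miR-409-5p: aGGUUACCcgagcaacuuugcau
mmu-miR-501-3p: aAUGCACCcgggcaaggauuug

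Sites for miR-409-5p were found in the longest annotated 3' UTR of 3 of the 9 genes, and sites for miR-501-3p in none. The search used GGTAACC and GTAACCA for miR-409-5p and GGTGCAT and GTGCATA for miR-501-3p on the transcript strand, where a site that holds both overlapping motifs is an 8mer. Of 14231 tested genes with an annotated 3' UTR, 10.5% held a site for miR-409-5p and 13.6% one for miR-501-3p. The UTRs of the members ran between 796 bp (Lrrtm1) and 7423 bp (Nlgn1), beside a median of 1393 bp over those genes. The 8mers of Nlgn3 (chrX:101324528-101324557, plus strand) and Lrrtm1 (chr6:77257418-77257447, plus strand) and the shorter sites of Lrrtm3 (chr10:63929203-63929231 and chr10:63929145-63929173, minus strand) are shown with the matched bases in capitals, in GRCm38 coordinates, which are those of mm10. A match describes the letters and does not show that the site is used.
Nlgn3: catgtaagaatGGTAACCAtgactgtaggg
Lrrtm1: tttggctcagtGGTAACCAcgtcttgccat
Lrrtm3 (first site): cattcttttgaGTAACCAttgttaaaggt
Lrrtm3 (second site): aaacaaaggtcGTAACCAcagcaacagac

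Total gene counts were between 22254788 and 32096808 per library. Counts leaned towards GC-rich or GC-poor transcripts to a different degree in each library. Regressed on GC content, the log2 deviation of a gene's level from its mean of all libraries had a slope of -0.105 to 0.0373 per 10 GC points under anti-miR-409-5p, -0.127 to 0.00853 under anti-miR-501-3p and 0.197 to 0.263 in control. The labels give no batch, so preparation and treatment cannot be told apart. The cultures held RNA of neurons and glia. The summed level of 5 pan-neuronal markers was 4938 to 5195 CPM (counts scaled by TMM to a common depth) under anti-miR-409-5p, 4797 to 5160 under anti-miR-501-3p and 4695 to 4766 in control. The list was split under each anti-miR, with Map2 and Snap25 called up and Tubb3, Rbfox3 and Syp called down, where 27.8% and 33% of all tested genes were called. With the trend on GC content and length removed, Syp stayed down (log2 fold change -0.27 and -0.28), and Map2, Tubb3 and Rbfox3 were not called. Snap25 turned to -0.084 and -0.12, called down under anti-miR-501-3p (edgeR adjusted p = 0.00696). For 6 astrocyte markers it was 1804 to 1848, 1755 to 1792 and 1738 to 1769 CPM in the same groups, for 8 markers of the oligodendrocyte lineage 419.9 to 519.7, 351 to 499.6 and 456 to 636, and for 6 fibroblast and mural markers 349 to 466, 447 to 567 and 383 to 555. The excitatory list of 4 genes summed to 3469 to 3546, 3445 to 3619 and 3643 to 3713 CPM, and the inhibitory list of 4 genes to 459 to 467, 442 to 466 and 423 to 428. These lists were split as well. Under anti-miR-409-5p 1 excitatory marker was called up and 1 down, 2 and 0 inhibitory markers, and 3 and 1 astrocyte markers. Under anti-miR-501-3p the calls were 2 up and 1 down, 1 and 1, and 2 and 2. With the trend removed, the only call in these lists was Dlx1, up under anti-miR-501-3p (log2 fold change 0.20). Slc17a7 averaged 1050, 1040 and 1200 CPM in the same groups, and Neurod6 454, 485 and 390. The 6 microglial markers summed to 13.4 to 15.02, 14.3 to 17.9 and 15.1 to 15.8 CPM, mostly from Aif1, Csf1r and Tmem119, while Cx3cr1 and Itgam had at most 4 counts in any library. The 4 endothelial markers summed to 13.6 to 15.9, 16.6 to 19.2 and 12.6 to 14.7 CPM, mostly from Kdr, which was called up under anti-miR-501-3p, while Cldn5 had at most 2 counts. Their part in the differences of the adhesion genes was not tested. In bulk RNA, fewer cells of a type and less RNA per cell cannot be told apart.

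Per merged exon length, Nlgn2, the neuroligin of inhibitory synapses, had the highest level of the 9 genes and Lrrtm4 the lowest. TPM, computed from the counts and the merged exon length of each gene, averaged 251 ± 10.9 for Nlgn2 under anti-miR-409-5p (SD, n = 4), 244 ± 12.1 under anti-miR-501-3p (n = 4) and 281 ± 1.79 in control (n = 2). Nrxn2 followed with 181 ± 4.79, 178 ± 13.3 and 212 ± 12.5 TPM, and Lrrtm1 with 135 ± 7.33, 134 ± 7.30 and 155 ± 4.61 TPM. The middle of the order was held by Nlgn1 with 59.6 ± 3.30, 61.1 ± 2.89 and 46.7 ± 1.97 TPM and by Lrrtm2 with 51.7 ± 4.45, 52.6 ± 2.87 and 37.4 ± 3.10 TPM. Nrxn3 had 37.5 ± 1.74, 36.5 ± 1.41 and 33.9 ± 0.134 TPM, and Nlgn3 had 33.6 ± 1.53, 29.6 ± 2.42 and 28.8 ± 1.53 TPM. Lrrtm3 had 9.73 ± 0.926, 8.97 ± 0.933 and 8.90 ± 0.655 TPM, and Lrrtm4 had 5.49 ± 0.613, 5.27 ± 0.489 and 3.52 ± 0.222 TPM. Each set of values is in the order anti-miR-409-5p, anti-miR-501-3p and control. The order of the genes was the same in all 3 groups, and the libraries of neighbouring genes did not overlap within a group. It depends on the length used, and no other length was tried. Reads in exon bases shared with another gene may also be missed. For Nlgn3 these are 41.2% of its exon bases, so its place may be too low. Nrxn2 has 13812 bp of merged exons but a longest transcript of 6667 bp, and Nrxn3 has 12605 and 7922 bp. For Nlgn2 the lengths are close, 5785 and 5568 bp, so its place above Nrxn2 rests on merged exons.

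Under anti-miR-409-5p, Lrrtm4, Lrrtm2, Nlgn1, Nlgn3 and Nrxn3 rose and Nrxn2 and Lrrtm1 fell, by edgeR's quasi-likelihood test at a Benjamini-Hochberg adjusted p of 0.05 over all tested genes. These are 5 genes up and 2 down of 9, where 15.6% of all tested genes were called up, 12.2% down and 27.8% in either direction. Under anti-miR-501-3p, Lrrtm4, Lrrtm2, Nlgn1 and Nrxn3 rose and Nrxn2, Nlgn2 and Lrrtm1 fell, 4 up and 3 down, where 17.6% of all tested genes were called up, 15.4% down and 33% in either direction. The median log2 fold change of the 9 genes was 0.197 and 0.0933 under anti-miR-409-5p and under anti-miR-501-3p, beside -0.0116 and -0.0119 over all tested genes. Under anti-miR-409-5p all 4 libraries lay above both controls for 5 genes and below both for 3, as did 24.1% and 24% of all tested genes (48% in all). Under anti-miR-501-3p this held for 4 and 3 genes, against 24.3% and 25.6% (49.9% in all). Both comparisons use the same 2 control libraries. The sign of each gene's fold change against control held with DESeq2 size factors, upper-quartile scaling and scaling by total counts. Upper-quartile scaling called 2233 genes up and 3074 down over the genome under anti-miR-409-5p and 2540 and 3607 under anti-miR-501-3p, where TMM gave 2634 and 2062, and 2974 and 2605.

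None of the 9 genes was called in either comparison after correction of every library for its trend on transcript GC content and length, where edgeR called 7.45% and 10.1% of all tested genes. At an unadjusted p under 0.05 the corrected fit gave 4 of the 9 genes under anti-miR-409-5p (Lrrtm2, Lrrtm4, Nlgn3 and Nrxn3, all higher) and 1 under anti-miR-501-3p (Nrxn3, higher), where the counts as deposited gave 8 and 7. Over all tested genes that threshold took 19.4% and 22.2% in the corrected fit and 39.1% and 42.6% with the counts as deposited. The transcripts of Lrrtm4, Lrrtm2 and Nlgn1 hold 38.4%, 38.4% and 38.9% G and C, and these 3 genes had the highest fold changes in both comparisons. Those of Lrrtm1, Nlgn2 and Nrxn2 hold 54.7%, 60.7% and 62.4%, and these 3 had negative fold changes in both. Lrrtm3, Nrxn3 and Nlgn3 lie between, at 44.5%, 47.5% and 49.3%, near the median of 49.5% over all tested genes. The fit also takes out any difference between the cells that follows GC content or length.

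**Figure D1:**
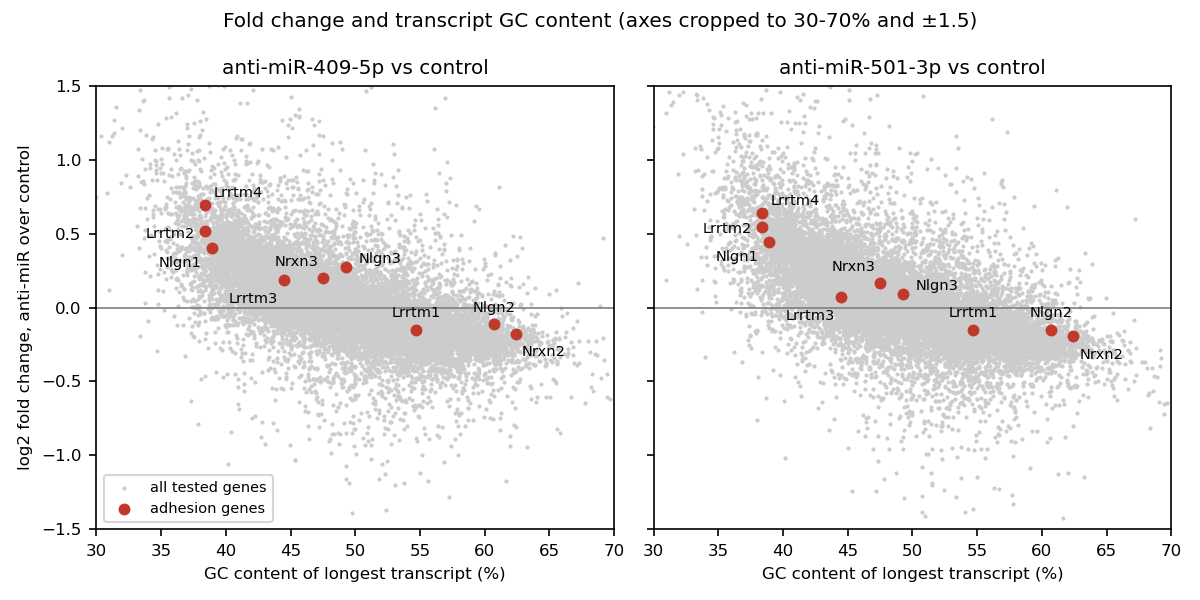
Log2 fold change of each tested gene (grey) and of the 9 adhesion genes (red) against the GC content of the gene's longest transcript in percent, for anti-miR-409-5p (left) and anti-miR-501-3p (right) over control. Lrrtm4, Lrrtm2 and Nlgn1, at 38.4% to 38.9% GC, lie highest of the 9, and Lrrtm1, Nlgn2 and Nrxn2, at 54.7% to 62.4%, lie below 0.

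Among the neurexins, Nrxn2 was lower and Nrxn3 higher under both anti-miRs. Nrxn2 (mm10 chromosome 19, 6418731 to 6544169, plus strand) had 602.5, 621, 591 and 594 CPM under anti-miR-409-5p, 642, 606, 551 and 576 CPM under anti-miR-501-3p, and 706 and 654 CPM in control. All 8 anti-miR libraries lay below both controls, with the first anti-miR-501-3p library nearest to them. Its log2 fold change was -0.18 ± 0.05 (SE) under anti-miR-409-5p and -0.20 ± 0.05 under anti-miR-501-3p (edgeR adjusted p = 0.0147 and 0.00635). Without control 1 both calls ended, with -0.11 and -0.13 on the log2 scale (edgeR adjusted p = 0.319 and 0.208), and with the GC and length trend removed the log2 fold changes were 0.00913 and 0.0359 (edgeR adjusted p = 0.93 and 0.568).

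Nrxn3 (chromosome 12, 88722876 to 90334935, plus strand) had 107.5, 109.5, 117.5 and 120.3 CPM under anti-miR-409-5p, 107, 113, 108 and 117 CPM under anti-miR-501-3p, and 98.6 and 99.7 CPM in control. All anti-miR libraries lay above both controls. The log2 fold changes were 0.20 ± 0.05 and 0.17 ± 0.05 (SE, edgeR adjusted p = 0.0083 and 0.0179), and without control 1 neither passed, at a similar 0.20 and 0.17 (edgeR adjusted p = 0.0769 and 0.115). Under anti-miR-501-3p the call also ended without control 2 (edgeR adjusted p = 0.0603), with upper-quartile scaling (0.0503) and with total counts (0.0629). With the GC and length trend removed the values were 0.11 and 0.084 (edgeR adjusted p = 0.0992 and 0.187). Neurexin genes give long alpha and short beta transcripts from separate promoters, and the counts per gene do not separate them. Nrxn3 took 17.2% ± 1.01 and 17.1% ± 1.22 of the summed TPM of Nrxn2 and Nrxn3 under anti-miR-409-5p and under anti-miR-501-3p (SD, n = 4 each), against 13.8% ± 0.75 in control (n = 2). The transcripts of Nrxn3 and Nrxn2 also differ in GC content (47.5% and 62.4%).

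**Figure D2:**
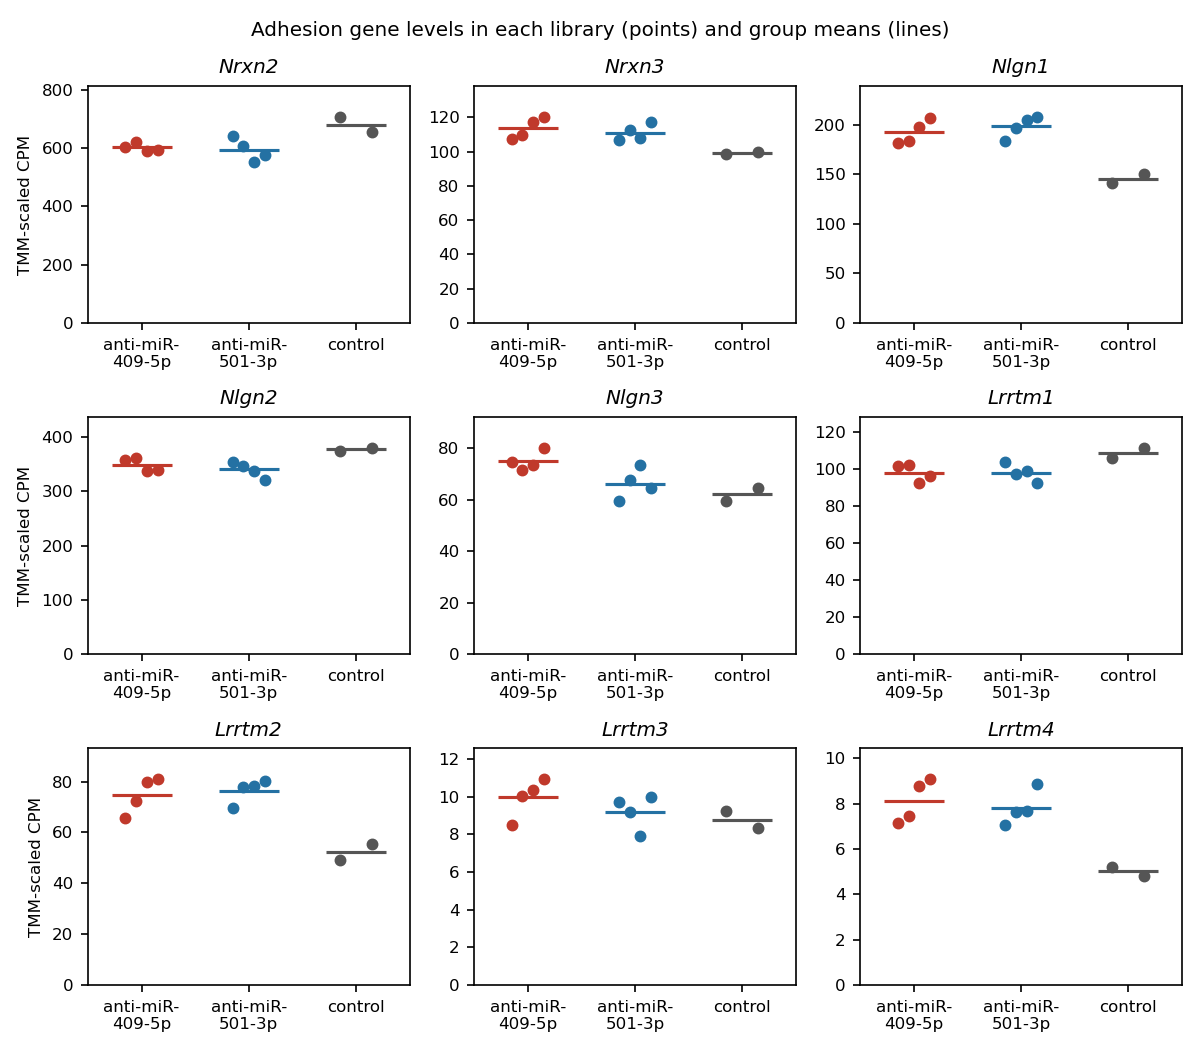
TMM-scaled CPM (vertical axes, each from 0) of the 9 adhesion genes in each library (points), with the group mean as a line, for anti-miR-409-5p (n = 4), anti-miR-501-3p (n = 4) and control (n = 2). The anti-miR libraries lie apart from both controls for Nrxn2, Nrxn3, Nlgn1, Nlgn2, Lrrtm1, Lrrtm2 and Lrrtm4, while those of Lrrtm3 overlap and those of Nlgn3 overlap under anti-miR-501-3p.

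The neuroligin genes did not move together. Nlgn1, the neuroligin of excitatory synapses (chromosome 3, 25426215 to 26332460, minus strand), had 182, 183, 198 and 207 CPM under anti-miR-409-5p, 183, 196, 205 and 208 CPM under anti-miR-501-3p, and 141 and 150.3 CPM in control. Every anti-miR library stood above both controls. Nlgn1 rose 1.32-fold and 1.36-fold, or 0.40 ± 0.06 and 0.44 ± 0.06 on the log2 scale (SE, edgeR adjusted p = 0.000202 and 5.39e-05). Both calls held in each of 18 alternatives that left the GC trend in place. The sign turned with the GC and length trend removed, to -0.0296 and -0.0308 (edgeR adjusted p = 0.715 and 0.656).

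Nlgn2 (chromosome 11, 69823122 to 69837784, minus strand) had 358, 362, 337 and 339 CPM under anti-miR-409-5p, 355, 347, 338 and 321 CPM under anti-miR-501-3p, and 374.5 and 380.1 CPM in control. All anti-miR libraries lay below both controls. Its log2 fold change of -0.11 ± 0.04 under anti-miR-409-5p did not pass (SE, edgeR adjusted p = 0.0574), though it did with upper-quartile scaling (0.018) and total counts (0.0153). Under anti-miR-501-3p Nlgn2 fell by 0.15 ± 0.04 on the log2 scale (edgeR adjusted p = 0.0129), a call that ended without control 1 (-0.15, edgeR adjusted p = 0.109) or control 2 (-0.13, 0.101). Both values were positive with the GC and length trend removed, 0.061 and 0.060 (edgeR adjusted p = 0.261 and 0.237).

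Nlgn3 (chromosome X, 101299168 to 101325963, plus strand), which carries an 8mer for miR-409-5p, had 74.5, 71.6, 73.3 and 80.1 CPM under anti-miR-409-5p, 59.4, 67.4, 73.6 and 64.6 CPM under anti-miR-501-3p, and 59.5 and 64.5 CPM in control. The anti-miR-409-5p libraries all lay above both controls, and the anti-miR-501-3p libraries overlapped them. Under anti-miR-409-5p Nlgn3 rose 1.21-fold, or by 0.27 ± 0.07 on the log2 scale (SE, edgeR adjusted p = 0.00976), and without control 1 the call ended at 0.23 (edgeR adjusted p = 0.13). Under anti-miR-501-3p the log2 fold change was 0.093 ± 0.07 (edgeR adjusted p = 0.333, 95% interval -0.043 to 0.23). After correction for GC content and length, Nlgn3 had 0.23 ± 0.07 under anti-miR-409-5p (SE, edgeR adjusted p = 0.0516), the lowest adjusted p of the 9 genes in that fit, and 0.068 ± 0.07 under anti-miR-501-3p (0.618).

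In proportion, Nlgn1 took 17.3% ± 1.28 of the summed neuroligin TPM under anti-miR-409-5p and 18.3% ± 1.30 under anti-miR-501-3p (SD, n = 4 each), against 13.1% ± 0.354 in control (n = 2). Nlgn2 took 72.9% ± 1.74 and 72.9% ± 1.89 under the anti-miRs, against 78.8% ± 0.665 in control. The ratio of Nlgn1 to Nlgn2 TPM was 0.219, 0.218, 0.253 and 0.263 under anti-miR-409-5p, 0.223, 0.244, 0.261 and 0.279 under anti-miR-501-3p, and 0.162 and 0.17 in control. The 8 anti-miR libraries thus all held more Nlgn1 per Nlgn2 than either control, for a pair of transcripts that differ in GC content (38.9% and 60.7%). The family's summed TPM was 344 ± 7.45 and 335 ± 8.90 under the anti-miRs and 357 ± 5.29 in control.

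**Figure D3:**
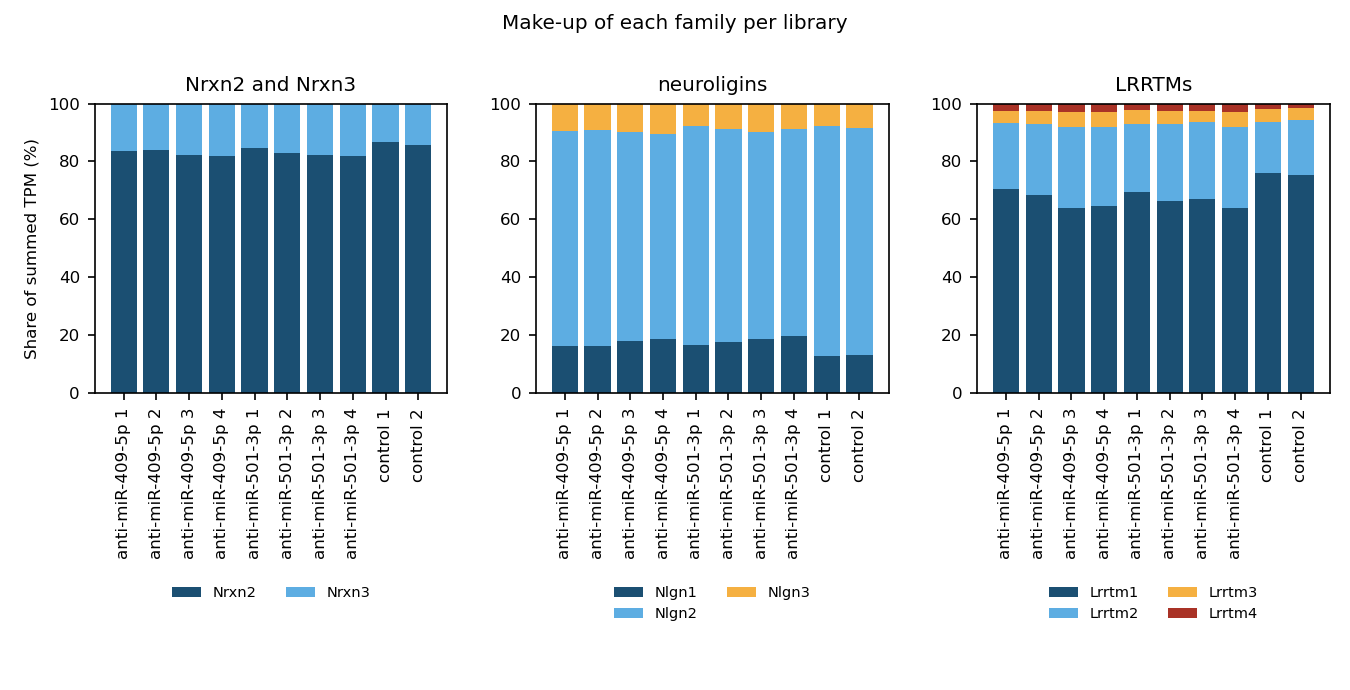
Share of each gene in the summed TPM of its family (vertical axis, percent, from 0 to 100) in each of the 10 libraries, for Nrxn2 and Nrxn3, the neuroligins and the LRRTMs. Nlgn1 took 16.2% to 19.9% in the anti-miR libraries and 12.9% to 13.4% in control, and Lrrtm2 took 23% to 28.02% and 17.6% to 18.9%.

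Of the LRRTM genes, Lrrtm2 and Lrrtm4 rose, Lrrtm1 fell and Lrrtm3 passed in neither comparison. Lrrtm4 (chromosome 6, 80018877 to 80810143, plus strand), whose protein also binds heparan sulfate proteoglycans, had 7.14, 7.47, 8.80 and 9.10 CPM under anti-miR-409-5p, 7.05, 7.64, 7.69 and 8.88 CPM under anti-miR-501-3p, and 5.23 and 4.81 CPM in control. These rest on 191 to 287, 201 to 262 and 144 to 147 counts. All anti-miR libraries lay above both controls. The rises of 1.62-fold and 1.56-fold, 0.69 ± 0.12 and 0.64 ± 0.12 on the log2 scale, were the highest of the 9 genes (SE, edgeR adjusted p = 0.000629 and 0.00078).

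Lrrtm2 (chromosome 18, 35209003 to 35215024, minus strand), whose protein competes with neuroligins for neurexins, had 65.9, 72.5, 79.8 and 81.1 CPM under anti-miR-409-5p, 69.5, 77.8, 78.2 and 80.4 CPM under anti-miR-501-3p, and 49.1 and 55.5 CPM in control. All 8 anti-miR libraries lay above both controls. Lrrtm2 rose by 0.52 ± 0.09 and 0.55 ± 0.09 on the log2 scale (SE, edgeR adjusted p = 0.00109 and 0.000504). For Lrrtm2 and Lrrtm4, as for Nlgn1, both calls held in each of the 18 alternatives that left the GC trend in place. With the GC and length trend removed, Lrrtm4 had 0.28 ± 0.10 and 0.16 ± 0.10 (edgeR adjusted p = 0.107 and 0.383) and Lrrtm2 had 0.086 ± 0.04 and 0.063 ± 0.04 (0.213 and 0.368).

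Lrrtm1 (chromosome 6, 77242689 to 77257791, plus strand), with an 8mer for miR-409-5p, had 102, 102, 92.4 and 96.4 CPM under anti-miR-409-5p, 104, 97.6, 99.2 and 92.5 CPM under anti-miR-501-3p, and 106 and 112 CPM in control. All anti-miR libraries lay below both controls. It fell by 0.15 ± 0.05 on the log2 scale under each (SE, edgeR adjusted p = 0.0349 and 0.0296). Both calls ended without control 1, at -0.17 under each (edgeR adjusted p = 0.124 and 0.103), without control 2, at -0.11 under each (0.277 and 0.249), and with a surrogate variable (0.0775 and 0.0537). The anti-miR-409-5p call also ended without replicate 3 (0.117) or 4 (0.0746) of that group or replicate 2 of anti-miR-501-3p (0.0611), and the anti-miR-501-3p call without replicate 2 (0.078) or 4 (0.0963) of that group. With the GC and length trend removed the Lrrtm1 values were -0.0298 and -0.0197 (edgeR adjusted p = 0.759 and 0.831).

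Lrrtm3 (chromosome 10, 63928472 to 64090277, minus strand), which has a pair of shorter sites for miR-409-5p, had 8.52, 10.01, 10.35 and 10.94 CPM under anti-miR-409-5p, 9.69, 9.17, 7.92 and 10 CPM under anti-miR-501-3p, and 9.21 and 8.35 CPM in control. Both anti-miR groups overlapped control. The log2 fold changes were 0.18 ± 0.11 and 0.070 ± 0.11 (SE, 95% intervals -0.0252 to 0.392 and -0.139 to 0.28, edgeR adjusted p = 0.214 and 0.661). Of the 3 genes with a site for miR-409-5p, Nlgn3 thus rose and Lrrtm1 fell under anti-miR-409-5p, and Lrrtm3 did not pass.

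Within the LRRTM family, Lrrtm1 took 66.8% ± 3.09 and 66.7% ± 2.28 of the summed TPM under anti-miR-409-5p and under anti-miR-501-3p (SD, n = 4 each), against 75.7% ± 0.276 in control (n = 2). Lrrtm2 took 25.6% ± 2.35 and 26.2% ± 1.93, against 18.3% ± 0.898. The family's summed TPM was 202 ± 3.54 and 201 ± 4.05 under the anti-miRs and 205 ± 6.83 in control, so the libraries differed in the make-up of the family and overlapped in its sum. These shares are not corrected for GC content, which is 54.7% in Lrrtm1 and 38.4% in Lrrtm2, and neither gene was called with the trend removed. Nrxn2 and Nrxn3 together had 219 ± 3.24 and 215 ± 13.1 TPM under the anti-miRs and 246 ± 12.3 in control.

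**Figure D4:**
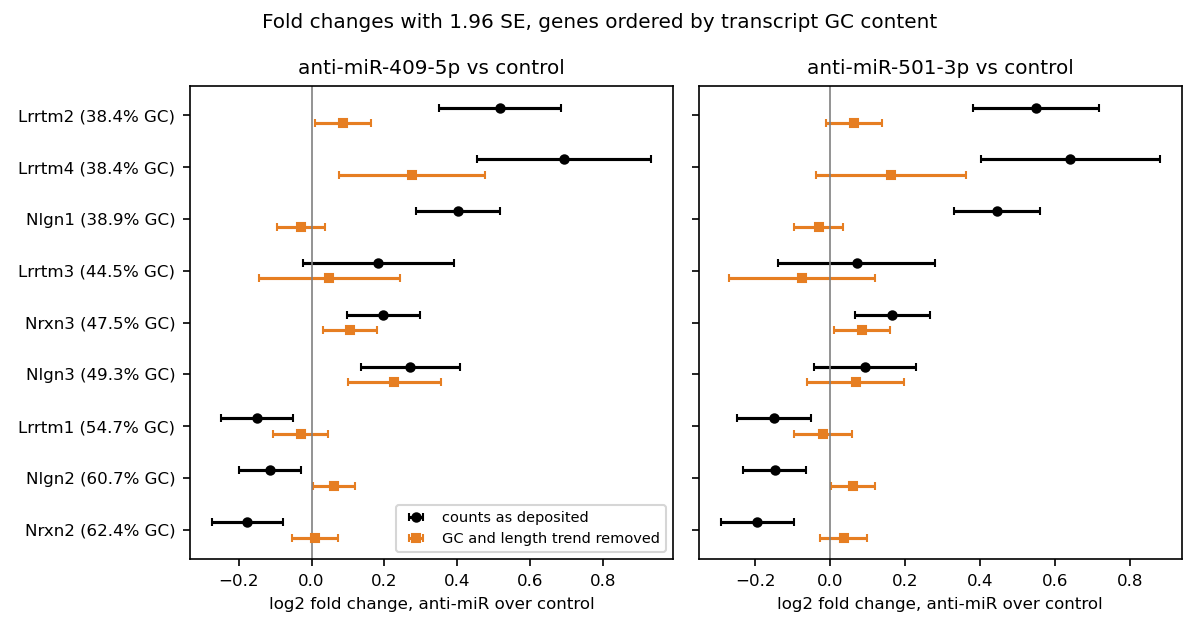
Log2 fold changes of the 9 genes, ordered by transcript GC content with the lowest at the top, for anti-miR-409-5p (left) and anti-miR-501-3p (right) over control. Points are fold changes and bars approximate 95% intervals from the SE, in black from the counts as deposited and in orange with the GC and length trend removed, where Lrrtm4 moves to 0.28 and 0.16 and Nlgn1 to -0.0296 and -0.0308.

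Several members share their locus with another gene. Lrrtm1, Lrrtm2 and Lrrtm3 lie inside Ctnna2, Ctnna1 and Ctnna3, alpha-catenin genes on the opposite strand, and the library kit does not mark strand. Ctnna2 had log2 fold changes of 0.043 and 0.029 and Ctnna1 of -0.0820 and -0.0522, none called (edgeR adjusted p between 0.163 and 0.587), and Ctnna3 had 3 to 8 counts per library and was not tested. For Nlgn3, 41.2% of its exon bases are shared with the same-strand transcript Gm21986, which had 8 to 14 counts per library. For Lrrtm4, 25.1% are shared with the antisense gene Gm4409, which had at most 1 count. Counts of Nlgn3, Lrrtm4 and Nlgn1, which overlaps A830092H15Rik over 9.16% of its exon bases, may miss reads in the shared stretches. The TPM of these genes and their shares within the families may then be too low.

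The direct comparison of anti-miR-409-5p with anti-miR-501-3p asked whether the adhesion genes respond differently to the 2 inhibitors. None of the 9 genes passed in edgeR, where 0% of all tested genes were called and 992 had an unadjusted p under 0.05 (DESeq2 called 3 genes in all, none of them among the 9), and for none did the groups stand apart, as they did for 1.66% of all tested genes with anti-miR-409-5p higher and 1.81% with it lower (3.47% in all). Nlgn3 was the 1 member with an unadjusted p under 0.05. Its libraries ran from 71.6 to 80.1 CPM under anti-miR-409-5p and from 59.4 to 73.6 CPM under anti-miR-501-3p, a log2 difference of 0.18 ± 0.06 (SE, 95% interval 0.0679 to 0.288, edgeR adjusted p = 0.771). It passed with no filter on low counts (edgeR adjusted p = 0.0211), where 42 genes were called in all. For the other members the log2 differences ran from -0.0427 (Nlgn1, 95% interval -0.134 to 0.0488) to 0.11 (Lrrtm3, -0.056 to 0.282), which does not show that the inhibitors act alike on them.

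Genes that work with these adhesion proteins also moved in both directions. Of 97 listed partner genes, chosen with earlier results of these data known, 95 were tested. The shares of partners called, here and in each list below, are therefore a description and no test of a response. Under anti-miR-409-5p 25 rose and 19 fell (46.3%, beside 27.8% of all tested genes), and under anti-miR-501-3p 25 rose and 28 fell (55.8%, beside 33%). Their median log2 fold changes were 0.0146 and 0.00933, near those of all genes. With the GC and length trend removed, 10 rose and 5 fell under anti-miR-409-5p and 8 rose and 9 fell under anti-miR-501-3p, where 7.45% and 10.1% of all tested genes were called. Without control 1 the counts were 11 up and 1 down under anti-miR-409-5p and 14 up and 6 down under anti-miR-501-3p, where 7.48% and 10.3% of all tested genes were called. Fewer partners also fell under each anti-miR without control 2, a fit that leaves a single control library. Fewer of all tested genes fell in that fit too. Without anti-miR-501-3p replicate 4, 18 partners fell under anti-miR-501-3p, where 1899 of 16805 tested genes fell. In the direct comparison none of the 95 passed in edgeR, and 3 had an unadjusted p under 0.05.

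Of 11 secreted ligands of neurexins, 3 rose and 2 fell under anti-miR-409-5p (45.5%, beside 27.8% of all tested genes). Under anti-miR-501-3p 4 rose and 2 fell (54.5%, beside 33%). C1ql3, a C1q-like protein of excitatory synapses, averaged 19.9 ± 1.21 CPM under anti-miR-409-5p and 20.4 ± 1.03 under anti-miR-501-3p (SD, n = 4 each), against 13.1 ± 1.97 in control (n = 2). It rose by 0.59 ± 0.09 and 0.63 ± 0.09 on the log2 scale (SE, edgeR adjusted p = 0.000135 and 4.79e-05). At 53.1% GC it went against the trend, and with the trend removed its values were 0.70 and 0.75 (edgeR adjusted p = 4.6e-05 and 1.28e-05). Nxph2, a neurexophilin that binds alpha-neurexins, rose by 0.86 ± 0.15 and 0.75 ± 0.15, with 0.41 and 0.24 after removal of the trend (edgeR adjusted p = 0.018 and 0.197). Cbln2, a cerebellin that links neurexins to delta receptors and was picked after its values were seen, rose by 0.32 ± 0.08 and 0.30 ± 0.08 and passed with the trend removed (0.32 and 0.29).

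Among 11 other surface partners, 1 rose and 3 fell under anti-miR-409-5p (36.4%, beside 27.8% of all tested genes). Under anti-miR-501-3p 1 rose and 4 fell (45.5%, beside 33%). Gpc1, a glypican, fell by 0.18 ± 0.04 and 0.24 ± 0.04 on the log2 scale (SE, edgeR adjusted p = 0.00507 and 0.000604), and Adgrl3, a latrophilin, rose by 0.20 ± 0.05 under anti-miR-409-5p (0.009), while Clstn3, a calsyntenin, fell by 0.15 ± 0.04 under anti-miR-501-3p (0.00488). With the trend removed, none of these 3 genes passed. Of the MDGA proteins, which block neuroligins from binding neurexins, Mdga1 fell by 0.21 ± 0.04 and 0.16 ± 0.04 (edgeR adjusted p = 0.00112 and 0.00545), while Mdga2 had 0.11 ± 0.06 and 0.075 ± 0.06 and did not pass. With the trend removed Mdga1 had -0.0864 and -0.00432 (edgeR adjusted p = 0.135 and 0.965) and Mdga2 had -0.16 and -0.20 (edgeR adjusted p = 0.0696 and 0.0143).

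Of 8 intracellular partners of neurexins, 2 rose under each anti-miR, 2 fell under anti-miR-409-5p and 3 under anti-miR-501-3p. The calls made up 50% and 62.5% of the list, beside 27.8% and 33% of all tested genes. Lin7a, a scaffold of the complex with CASK and Mint, averaged 176 ± 11.4 and 179 ± 15.3 CPM under anti-miR-409-5p and under anti-miR-501-3p (SD, n = 4 each), against 124 ± 12.0 in control (n = 2). Its log2 fold changes were 0.51 ± 0.08 and 0.53 ± 0.08 (SE, edgeR adjusted p = 0.00148 and 0.000804), and it passed with the trend removed (0.38 under each, edgeR adjusted p = 0.0163 and 0.0123). Its paralog Lin7c rose by 0.66 ± 0.13 and 0.78 ± 0.13 and had 0.18 and 0.23 with the trend removed (edgeR adjusted p = 0.0123 and 0.00136).

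Of 9 intracellular partners of neuroligins, 2 rose under each anti-miR, 2 fell under anti-miR-409-5p and 3 under anti-miR-501-3p. The calls made up 44.4% and 55.6% of the list, beside 27.8% and 33% of all tested genes. Dlg2, a postsynaptic scaffold, rose by 0.18 ± 0.04 on the log2 scale under each (SE, edgeR adjusted p = 0.00286 and 0.00185) and had 0.00115 and 0.00206 with the trend removed. Dlg4, the PSD-95 gene and picked after its values were seen, fell by 0.17 ± 0.04 and 0.16 ± 0.04 (edgeR adjusted p = 0.00299 and 0.0025) and had -0.27 and -0.26 with the trend removed (0.000115 and 7.92e-05).

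Among 7 splicing regulators of neurexin transcripts, 2 rose under each anti-miR (28.6%, beside 27.8% and 33% of all tested genes called). Ptbp2 rose by 0.49 ± 0.07 and 0.55 ± 0.07 on the log2 scale (SE, edgeR adjusted p = 0.00059 and 0.000189), but at 34.2% GC it passed in the other direction with the trend removed (-0.19 and -0.25, edgeR adjusted p = 0.0018 and 6.36e-05). Rbfox1 rose by 0.28 ± 0.08 and 0.32 ± 0.08 and did not pass after removal. Of 5 proteases that cut neurexins or neuroligins, Adam10 rose by 0.32 ± 0.04 under each (edgeR adjusted p = 8.8e-05 and 5.77e-05), with 0.096 and 0.066 after removal (0.0815 and 0.247), and Psen2 fell by 0.19 ± 0.06 under anti-miR-501-3p (0.0274), with -0.0232 after removal (0.872).

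In a parallel adhesion system, 17 tested genes of the LAR-type phosphatases and their postsynaptic partners gave 6 rises and 6 falls under anti-miR-409-5p. Under anti-miR-501-3p they gave 5 rises and 7 falls. The calls made up 70.6% under each, beside 27.8% and 33% of all tested genes. With the GC and length trend removed, 0 of the 17 rose and 1 fell under anti-miR-409-5p. Under anti-miR-501-3p 0 rose and 2 fell. The corrected fit called 7.45% and 10.1% of all tested genes. Ptprd, one of the phosphatases, rose by 0.28 ± 0.06 on the log2 scale under anti-miR-409-5p (SE, edgeR adjusted p = 0.00194), Ntrk3, a neurotrophin receptor that also binds PTPRS, rose by 0.24 ± 0.04 under anti-miR-501-3p (0.000369), and Lrfn3 fell by 0.31 ± 0.05 under anti-miR-501-3p (0.000401). None of these calls passed with the trend removed. Of 23 further synaptic adhesion genes, 8 rose and 3 fell under anti-miR-409-5p (47.8%) and 8 rose and 7 fell under anti-miR-501-3p (65.2%). With the trend removed, 3 rose and 0 fell under anti-miR-409-5p, and 3 rose and 1 fell under anti-miR-501-3p. Nectin3, of the puncta adherentia between mossy fibres and CA3 dendrites, averaged 175 ± 9.09 and 184 ± 8.56 CPM under the anti-miRs (SD, n = 4 each), against 139 ± 6.63 in control (n = 2). It rose by 0.33 ± 0.05 and 0.41 ± 0.05 and passed with the trend removed (0.19 and 0.27, edgeR adjusted p = 0.00168 and 3.41e-05).

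The authors' deposited table gave the members the same signs against control. In the authors' deposited table the log2 fold change of Lrrtm4 was 0.70 and 0.65 under anti-miR-409-5p and under anti-miR-501-3p, that of Nlgn1 0.41 and 0.45, and that of Nrxn2 -0.17 and -0.19. Lrrtm1 had an adjusted p of 0.0557 and 0.0364 in the authors' deposited table, so that only the second lay under 0.05.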

How the data were processed

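Polyadenylated RNA was sequenced in 10 libraries (TruSeq RNA kit v2, single-end 50 bp reads, HiSeq2000, per the labels' protocols). Build mm10, STAR 2.5.2b, FastQC 0.11.5, Subread 1.5.1 and featureCounts are named per the submitters' processing notes. The annotation release, the strand setting and the handling of multi-mapping reads are not given in the sources used here. The count tables that the authors deposited hold unnormalized read counts for Ensembl genes, with totals of 22254788 to 32096808 per library. The authors also deposited, per anti-miR, a table against control that holds log2 fold changes and test statistics (score columns), p-values and a normalized signal per library, whose tool is not given in the sources used here. Only its fold changes and adjusted p-values for the members were read.

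Counts were filtered with filterByExpr, scaled by TMM and tested with edgeR 4.0.16 (R 4.3.3, quasi-likelihood, robust, two-sided, prior count 2 for log2 CPM) in a single fit of 10 libraries and 3 groups with no covariate. The p-values were adjusted by Benjamini-Hochberg over 16884 genes, with a threshold of 0.05. TPM used the merged exon length of GENCODE M21, and GC content came from the longest transcript. The GC and length trend was removed by splines (5 degrees of freedom) fitted per library where mean log2 CPM exceeded 1 and entered as an offset (available for 99.7% of tested genes). Alternatives were other scalings, no filter, DESeq2 1.42.0, fewer groups, a replicate block, a surrogate variable (sva 3.50.0) and each library left out. The test script was tested on simulated data. No libraries were duplicates (chi-square per degree of freedom 1.65 to 12.0).

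The members and partner lists were chosen with earlier results of these data known. Partners were named as those with the smallest p of each list in each comparison with control, and exceptions are marked. Some genes that this rule took are not reported here.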

Additional observations from a re-analysis of the deposited data

How the results depend on the processing

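Leaving out a library gave 3 to 5 members up and 0 to 2 down under anti-miR-409-5p (5 and 2 with all libraries) and 3 to 4 up and 0 to 3 down under anti-miR-501-3p (4 and 3). Partner genes ranged over 11 to 28 up and 1 to 18 down under anti-miR-409-5p, and 14 to 28 up and 6 to 28 down under anti-miR-501-3p. The low end of each of these ranges was reached without control 1, a fit that leaves a single control library and calls fewer of all tested genes. The shares that follow do not apply to it. When an anti-miR library was left out, 20.3% to 30.3% of all tested genes were called under anti-miR-409-5p and 26.9% to 36.1% under anti-miR-501-3p. With the GC and length trend removed, alone or with the replicate block, 0 members were up and 0 down against control. The calls over all tested genes were then 7.45% and 10.1% alone, and 7.68% and 10.9% with the block. Alone it left 10 partners up and 5 down under anti-miR-409-5p and 8 and 9 under anti-miR-501-3p, and with the block 12 and 6, and 10 and 9. A surrogate variable left 1 member down under anti-miR-409-5p, where 1575 of 16884 tested genes were called down. In the direct comparison, no filter called 1 member up, where 17 of 32177 genes were called up. The block with GC removal called 1 partner down, where 105 of 16884 genes were called down. Signs turned under GC removal, given first alone and then with the block, as log2 fold changes. Under anti-miR-409-5p these were Nrxn2 (0.00913, 0.0113), Nlgn1 (-0.0296, -0.0321) and Nlgn2 (0.061, 0.067). Under anti-miR-501-3p they were Nrxn2 (0.0359, 0.0380), Nlgn1 (-0.0308, -0.0335), Nlgn2 (0.060, 0.066), Lrrtm3 (-0.0757, -0.0871) and, with the block, Lrrtm1 (0.00452). In the direct comparison they were Nrxn2 (-0.0268, -0.0267), Nlgn1 (0.00123, 0.00136), Lrrtm1 (-0.0101, -0.0102) and Lrrtm2 (0.0232, 0.0229). Leaving out a library, the direct values ranged over -0.0145 to 0.061 for Nrxn2, -0.0263 to 0.030 for Lrrtm1, -0.0744 to 0.025 for Lrrtm2 and -0.0124 to 0.12 for Lrrtm4. The cause of these turns was not tested. With the replicate block alone no call of a member changed, and 252 genes over the genome were called in the direct comparison, where no block gave 0. Same-numbered libraries correlated at 0.0283 to 0.174 in their deviations from group means (8 pairs), other pairs at -0.158 to 0.122 (24). Between the anti-miR groups the same-numbered pairs had 0.174, 0.0893, 0.0639 and 0.149, and the other pairs at most 0.0535. The labels do not say what a shared number stands for, and the main fit does not use it. Not every library correlated best with its own number (control 2 and replicate 3 of each anti-miR did not). These cases involve control 2, and the deviations of the controls mirror each other by construction. Where 1 control is left out, the other is assumed to vary like the anti-miR libraries. Control has 2 libraries, and Lrrtm3 and Lrrtm4 rest on 144 to 345 counts per library.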

Other observations

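The genes given here, among those whose log2 CPM followed each adhesion gene most closely over the 10 libraries, had Pearson's r between 0.907 and 0.998, as a description, since the libraries of a group share a treatment and a similar GC slope. For Nlgn1 they were Zdhhc20 (0.996), a palmitoyltransferase gene, and Zfp148 (0.995), at 38.8% and 39.9% GC beside 38.9% in Nlgn1. For Lrrtm2 (38.4% GC) they were Slc16a7 (0.998, 37.7% GC), a monocarboxylate transporter gene, and Cacna2d1 (0.997, 40.7%), a calcium channel subunit gene. For Nlgn2 (60.7%) they were Syngr1 (0.986, 56.8%), a synaptic vesicle gene, and Tbl3 (0.984, 55.5%). For Nlgn3 (49.3%) they were Dpysl3 (0.939, 50.1%) and Zbtb34 (0.935, 47.1%). For Nrxn2 (62.4%) they were Rnaseh2c (0.981, 58.1%) and Usp35 (0.976, 59.1%), and for Nrxn3 (47.5%) Slmap (0.975, 46.1%) and Hdac2 (0.974, 41.9%). For Lrrtm1 (54.7%) they were Tmem205 (0.976, 51.1%) and Cmip (0.975, 52.8%). Lrrtm4 (38.4%) had Elovl5 (0.986, 44.8%), and Lrrtm3 (44.5%) had Prkce (0.907, 50.2%), so the match in GC content was not close for every gene.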
